A study of Mus musculus with 3 samples.

Results

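The accessible chromatin of 8 synaptic adhesion genes was described: the neurexins Nrxn2 and Nrxn3, the neuroligins Nlgn1 and Nlgn2, and the leucine-rich repeat transmembrane genes Lrrtm1, Lrrtm2, Lrrtm3 and Lrrtm4. Accessibility had been measured by ATAC-seq, which marks open DNA by where a transposase inserts, in viable FACS-sorted cells from mouse brain, 50000 per biological replicate. Corticospinal motor neurons (CSMN), which project from the cortex to the spinal cord, gave 1 library, CSMN 1. Callosal projection neurons (CPN), which connect the cortical hemispheres, gave 2 libraries, CPN 1 and CPN 2. No genotype or treatment was named for either group, and the labels give neither the mice's age and strain nor the gate of the sort. Peaks of the 3 lists that overlapped by at least 1 bp were merged into regions, and a region was assigned to a gene when its strongest summit lay in the gene body or within 10 kb of it (mm10). The 8 windows held 220 of 204313 regions. The gene bodies alone held 206, and windows reaching 50 kb held 279. Of the 220, 7 lay in the flanks and away from a gene start.

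Neurexins are presynaptic adhesion proteins of the axon terminal. Neuroligins and LRRTMs sit on the postsynaptic side and bind neurexins across the cleft. Neuroligin 1 is known from excitatory synapses and neuroligin 2 from inhibitory synapses, and the LRRTMs are known from excitatory synapses. Neurexin genes use an upstream promoter for the long alpha forms and an internal promoter for the short beta forms. Lrrtm1, Lrrtm2 and Lrrtm3 each lie inside an alpha-catenin gene, Ctnna2, Ctnna1 and Ctnna3, while Lrrtm4 stands on its own.

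The RefSeq promoter table, on GRCm38.p6 (mm10), held 10 promoters of 6 members, each running from 250 bases before to 50 after an annotated start. The 6 printed here, read 5′ to 3′ on the strand given, carry the contrasts described afterwards: both Nrxn3 starts because one lay under a peak in every library and the other had none near it, Nlgn2 for its base composition, Lrrtm1 because its peak began past the start, and Lrrtm3 and Lrrtm4 for the highest folds among the members. Capitals mark matches, on either strand, to 6 short motifs. These were GGGCGG as the GC box, CCAAT as the binding site of nuclear factor Y, and TATAAA as the TATA box. The rest were TGANTCA for AP-1 factors, CAGATG as an E-box bound by NeuroD factors, and TGACG as the CRE half-site.
Nrxn3, internal start, chr12:89812233-89812532 (+): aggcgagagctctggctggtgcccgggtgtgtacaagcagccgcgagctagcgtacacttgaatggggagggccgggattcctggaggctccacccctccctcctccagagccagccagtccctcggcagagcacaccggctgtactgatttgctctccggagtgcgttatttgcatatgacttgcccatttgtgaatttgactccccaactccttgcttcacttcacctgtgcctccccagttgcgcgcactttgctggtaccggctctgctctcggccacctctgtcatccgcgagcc
Nrxn3, start without a nearby peak, chr12:88953140-88953439 (+): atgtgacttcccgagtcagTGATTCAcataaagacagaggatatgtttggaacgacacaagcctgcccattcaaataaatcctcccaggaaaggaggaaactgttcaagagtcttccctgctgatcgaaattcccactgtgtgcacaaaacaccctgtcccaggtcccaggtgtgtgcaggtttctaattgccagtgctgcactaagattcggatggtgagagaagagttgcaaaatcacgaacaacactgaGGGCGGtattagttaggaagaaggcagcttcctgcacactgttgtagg
Nlgn2, chr11:69837735-69838034 (-): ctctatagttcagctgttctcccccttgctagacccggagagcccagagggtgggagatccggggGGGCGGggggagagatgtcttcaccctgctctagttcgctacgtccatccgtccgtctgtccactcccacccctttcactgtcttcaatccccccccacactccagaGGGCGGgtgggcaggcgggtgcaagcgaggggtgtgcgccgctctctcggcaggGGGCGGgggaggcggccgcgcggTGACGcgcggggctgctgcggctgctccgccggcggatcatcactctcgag
Lrrtm1, chr6:77242227-77242526 (+): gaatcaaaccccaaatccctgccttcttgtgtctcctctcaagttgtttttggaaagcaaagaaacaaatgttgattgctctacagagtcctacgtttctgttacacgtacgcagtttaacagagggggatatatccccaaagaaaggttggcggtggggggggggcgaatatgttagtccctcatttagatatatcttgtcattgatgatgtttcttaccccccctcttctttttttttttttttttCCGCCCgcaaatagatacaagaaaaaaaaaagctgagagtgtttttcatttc
Lrrtm3, chr10:64090206-64090505 (-): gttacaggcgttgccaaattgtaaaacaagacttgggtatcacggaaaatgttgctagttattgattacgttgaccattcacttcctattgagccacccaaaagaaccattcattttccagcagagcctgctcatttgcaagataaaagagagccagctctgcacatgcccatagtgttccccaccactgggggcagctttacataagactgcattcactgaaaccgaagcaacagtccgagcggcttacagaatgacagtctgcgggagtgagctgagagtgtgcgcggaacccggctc
Lrrtm4, chr6:80018627-80018926 (+): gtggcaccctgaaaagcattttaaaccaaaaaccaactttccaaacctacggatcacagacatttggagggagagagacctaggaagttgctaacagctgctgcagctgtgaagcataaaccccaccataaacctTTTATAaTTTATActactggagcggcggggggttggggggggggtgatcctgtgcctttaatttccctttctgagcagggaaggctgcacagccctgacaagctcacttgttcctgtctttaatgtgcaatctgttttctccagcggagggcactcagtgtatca
The Nlgn2 promoter was the most GC-rich of the 10, with 68.7% G or C, 26 CpG dinucleotides, 3 GC boxes and 1 CRE half-site. The Nrxn3 internal start had 60.7% G or C and 16 CpG, and the Nrxn3 start with no peak near it had 47.7% and 6 CpG, 1 GC box and 1 AP-1 match. Lrrtm1 had the lowest share, 40.7%, with 7 CpG and 1 GC box. The Lrrtm4 promoter held 4 CpG and 2 adjacent TATAAA matches, and none of the 6 motifs was found in the Lrrtm3 promoter. Over 21263 promoters the median was 56.3% G or C and 13 CpG, and 46.2% held a GC box, 38.2% CCAAT, 12.6% TATAAA, 6.99% the AP-1 motif, 14.6% the NeuroD E-box and 23.6% the CRE half-site. In the promoters printed no base belonged to more than 1 match. A match is a string of letters, not evidence of binding.

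The lists differed in length and strength. CSMN 1 had 98067 peaks covering 39.7 Mb, CPN 1 had 134018 covering 54.7 Mb and CPN 2 had 158779 covering 47.2 Mb, and no read totals came with the lists. A −log10 q of at least 5, called strong below, was reached by 55.2% of CSMN 1 peaks, against 72.4% in CPN 1 and 65.4% in CPN 2. Of the 5 CSMN markers (Fezf2, Bcl11b, Crym, Ldb2 and Sox5), 5 had a peak within 1 kb of a gene start in CSMN 1 and in both CPN libraries. Excitatory neuron markers had start peaks for 2 of 4 genes in CSMN 1, 3 in CPN 1 and 4 in CPN 2. Rbfox3 lacked one in CSMN 1, and Slc17a7 lacked one in CSMN 1 and CPN 1. Markers of other cells were open too: 5 of 5 interneuron genes and 3 of 3 endothelial genes had start peaks in each library. So did 2 of 4 astrocyte genes, Aqp4 and Gfap lacking one in every library. The oligodendrocyte lineage had 3 of 5 in CSMN 1 and 4 in each CPN library. Sox10 lacked one in every library and Pdgfra in CSMN 1 only. Microglia had 1 of 4 in CSMN 1, 2 in CPN 1 and 1 in CPN 2. C1qa and Csf1r lacked one in every library, and Cx3cr1 in CSMN 1 and CPN 2. With 1 CSMN library no test between the cell types was possible, and the difference between CPN 1 and CPN 2 is the spread between replicates. Intervals in brackets are Wilson 95% bounds, which allow for counting error but for no other error.

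All 8 genes were open at a start in both cell types. Most regions lay in gene bodies away from a start, 193 of all 220 and 72 of the 89 with a peak in all 3 libraries. CSMN 1 had 121 peaks in the 8 windows, CPN 1 had 172 and CPN 2 had 168. Of the 220 regions, 89 had a peak in all 3 libraries, 40.5% (34.2 to 47.1), where 32.4% of the regions in windows of protein-coding genes did. Without Nrxn3 the share was 37% (29.1 to 45.7). A CSMN peak with none in either CPN list, called CSMN-only, was found in 21 regions, 9.55%, against a background of 9.41%. A peak in both CPN lists with none in CSMN, called CPN-only, was found in 43 regions, 19.5%, and the background was 19.5%. With Nrxn3 included both shares were near those of other genes. Without Nrxn3, 12 of 127 regions were CSMN-only, 9.45%, and 32 were CPN-only, 25.2%. Of the 21 CSMN-only regions 18, and of the 43 CPN-only regions 40, lay in gene bodies away from a start. CPN 1 alone had 35 of the 220 regions, a share slightly above its background of 13.2%. CPN 2 alone had 24 of the 220, a share below its background of 21.5%. Either CPN library alone held more regions of its own than CSMN 1 did, as it also did over all gene windows. A further 5 regions were shared by CSMN 1 and CPN 1 and 3 by CSMN 1 and CPN 2.

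The 2 kinds of region differed in strength, but their rules differ too. CPN-only needs a peak in both CPN lists, and CSMN-only a peak in the 1 CSMN list, so the strengths are not compared like for like. Member regions of CPN 1 alone had a median fold of 2.89 and those of CPN 2 alone 3.02. Strong CSMN-only regions numbered 3 of 21, 14.3%, all in Nrxn3, and the background was 1.03% of regions; of all CSMN-only regions in gene windows, 10.9% were strong, so the members' share was near the background. The median fold of the 21 was 2.17 and the highest 3.97. Strong CPN-only regions numbered 28 of 43, 65.1%, in 7 of the 8 genes, and the background was 11.7% of regions; of all CPN-only regions in gene windows, 59.6% were strong. Their median folds were 3.76 in CPN 1 and 3.88 in CPN 2. CSMN-only regions made up 32.8% (22.6 to 45) of the 2 classes together, beside 32.5% in all gene windows. Without Nrxn3 the members' share was 27.3% (16.3 to 41.8). Over all regions, inside and outside gene windows, the share was 37.7%. With lists cut to equal length the share was 50% in the members and 58.1% over all regions. That setting cuts the CPN lists alone, so no CSMN-only region could lose its class, and it does not show where the excess of CPN-only regions comes from. With −log10 q of at least 5 the share was 6.52% in the members and 12.1% over all regions. CPN-only regions were the larger class in each marker list. The counts, CSMN-only first, were 13 and 51 for CSMN markers, 12 and 30 for CPN markers and 6 and 27 for excitatory neurons. They were 1 and 17 for endothelial markers, 5 and 26 for the oligodendrocyte lineage and 0 and 9 for astrocytes. Microglia had 1 and 5 and interneurons 2 and 8. CPN-only regions made up 44.7% of endothelial and 34.7% of oligodendrocyte lineage regions, against a background of 19.5%. The other lists lay nearer to it, from 18.5% for microglia to 23.9% for CSMN markers. The CSMN-only share, 32.5% in all gene windows, was 5.56% (0.988 to 25.8) for endothelial markers. It was 16.1% (7.09 to 32.6) for the oligodendrocyte lineage, 20.3% (12.3 to 31.7) for CSMN markers and 0% (0 to 29.9) for astrocytes. Excitatory neuron markers were as low, at 18.2% (8.61 to 34.4). Interneurons had 20% (5.67 to 51), microglia 16.7% (3.01 to 56.4) and CPN markers 28.6% (17.2 to 43.6). The part of other cells in the CPN-only regions of the members was not tested, and in these bulk libraries fewer cells with an open site and less cutting per cell cannot be told apart.

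By gene, 2 of 8 members had more CSMN-only than CPN-only regions, Nlgn2 and Lrrtm4, where 16.9% of protein-coding genes with a region did. The other 6 had more CPN-only regions, where 44.0% of genes did. The remaining genes of this background had equal counts of the 2 classes, as no member did. Among background genes with unequal counts, 8268 had more CPN-only and 3174 more CSMN-only regions, so the larger CPN-only class was common there too. Lrrtm1, Lrrtm2 and Lrrtm3 had no CSMN-only region, although with windows of 50 kb each had 1, beside 3 CPN-only regions for Lrrtm1, 3 for Lrrtm2 and 5 for Lrrtm3. Within 10 kb these genes held only 7, 4 and 15 regions, where 9.41% of regions in gene windows were CSMN-only. The intervals of their CSMN-only shares were wide, 0 to 65.8, 0 to 79.3 and 0 to 49. The regions sorted by the libraries that held them are drawn per gene.

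**Figure D1:**
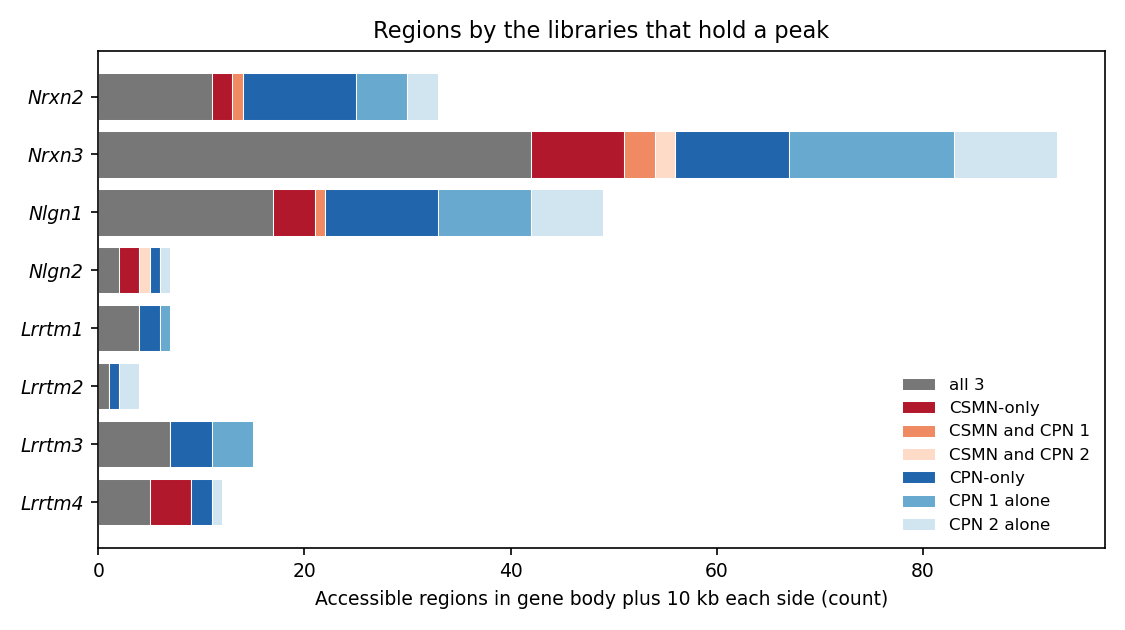
Accessible regions (count) in the gene body plus 10 kb on each side for the 8 genes, split by the libraries that held a peak: 1 CSMN library and 2 CPN libraries. Nrxn3 had 93 regions, 42 of them in all 3 libraries, and Lrrtm1, Lrrtm2 and Lrrtm3 show no CSMN-only segment.

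Peaks lay within 1 kb of a start of 8 of 8 members in CSMN 1, against a background of 68.0% of 21900 protein-coding genes, in 8 of 8 in CPN 1, against 70.1%, and in 8 of 8 in CPN 2, against 71.2%. The background for all 3 libraries together was 65.9%. For Nrxn2 and Lrrtm2, whose strand was not in the tables used, either gene end was counted. The folds below are the authors' value at the summit of each peak, the enrichment over local background, and describe each list on its own, since the lists were not normalised to each other. Nrxn3 had a fold of 9.32 in CSMN 1, 16.2 in CPN 1 and 16.1 in CPN 2 at the start of its gene body. Lrrtm4 had 11.8 in CSMN 1, 17.2 in CPN 1 and 21.6 in CPN 2, the highest in each list among the members. Lrrtm3 followed with 11.4 in CSMN 1, 16.7 in CPN 1 and 20.8 in CPN 2. These peaks ranked above 96.2% or more of their list in CSMN 1 for both LRRTMs, above 96.1% or more in CPN 1 and above 98.5% or more in CPN 2.

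Nlgn1 had 9.49 in CSMN 1, 9.84 in CPN 1 and 7.9 in CPN 2, so that the CSMN value lay between the CPN values. Lrrtm1 had the lowest start peak of the members, 5.43 in CSMN 1, 4.78 in CPN 1 and 6.02 in CPN 2, and here too CSMN lay between the replicates. Nlgn2 had 8.46 in CSMN 1, 12.3 in CPN 1 and 11.2 in CPN 2, Nrxn2 had 8.14 in CSMN 1, 13.6 in CPN 1 and 13.7 in CPN 2, and Lrrtm2 had 6.59 in CSMN 1, 12.2 in CPN 1 and 9.91 in CPN 2. In 6 of the 8 genes the CSMN fold was below both CPN folds, as was the median fold of the whole list, 2.86 in CSMN 1, 3.82 in CPN 1 and 3.68 in CPN 2. The peak did not always lie over the promoter sequence. It covered all 300 bases shown for Nlgn2 and for the Nrxn3 internal start in every library, 117 bases of Lrrtm4 in CSMN 1 and 98 in each CPN library, and none of Lrrtm1, where it began 132 bp past the start in CSMN 1 and 130 bp past it in both CPN libraries.

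**Figure D2:**
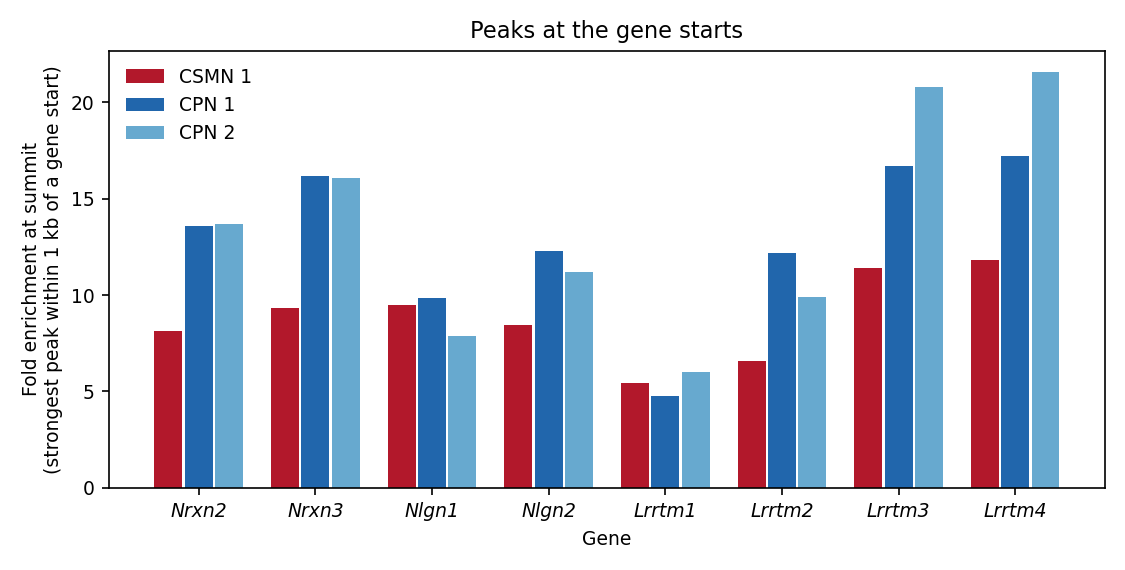
Fold enrichment at the summit (the authors' value, linear axis from 0) of the strongest peak within 1 kb of a start of each gene, 1 bar per library, CSMN 1, CPN 1 and CPN 2. Lrrtm3 and Lrrtm4 are highest in each list, and at Nlgn1 and Lrrtm1 the CSMN bar lies between the CPN bars.

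Nrxn2, the shorter of the neurexin genes described here, spans 114 kb at chr19:6418756-6533217 and was densely open, with 33 regions or 24.5 per 100 kb of window. That exceeded 94.9% of 2487 genes of like length, whose median was 10.5. CSMN 1 had 16 peaks there, CPN 1 had 28 and CPN 2 had 27. Regions in all 3 libraries numbered 11, with 2 CSMN-only and 11 CPN-only. Both CSMN-only regions were weak, with folds of 2.01 and 2, and 1 of them lay in the neighbouring gene Slc22a12. Of the CPN-only regions 8 were strong. A group of 3 stood next to each other, with no other region between them, across 11.7 kb near the far end of the gene, chr19:6519587-6531305. Their folds were 2.76, 4 and 3.78 in CPN 1 and 3.52, 3.09 and 3.88 in CPN 2. At that end of the gene a peak 908 bp from the boundary had a fold of 2.78 in CSMN 1, and the strongest within 1 kb had 3.75 in CPN 1 and 3.4 in CPN 2.

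Nrxn3, a presynaptic neurexin gene of 1612 kb at chr12:88722701-90334935 on the plus strand, held 93 regions, 5.7 per 100 kb, above 74% of 49 genes of like length. CSMN 1 had 57 peaks, CPN 1 had 72 and CPN 2 had 68. Its starts differed. The peak at the gene body start is given above. The start at 88794504 had a weak peak with a fold of 2.52 in CSMN 1, 2.89 in CPN 1 and 3.07 in CPN 2. The start at 88953390 had no peak within 1 kb in any library, the nearest lying 30379 bp away in CSMN 1, 10549 bp in CPN 1 and 30466 bp in CPN 2. The internal start at 89812483 lay under a broad peak with a fold of 7.82 and a width of 1300 bp in CSMN 1, 9.43 and 1250 bp in CPN 1, and 11.7 and 912 bp in CPN 2. The table does not name the form of the transcript made from each start.

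Of the 93 Nrxn3 regions, 42 were in all 3 libraries, 9 were CSMN-only and 11 CPN-only. The 3 strong CSMN-only regions of all 8 genes were chr12:88987221-88987347 with a fold of 3.97 and a −log10 q of 13.2, chr12:89259031-89259176 with 2.95 and 5.88, and chr12:89918302-89918480 with 3.38 and 8.53. All 3 were narrow and inside the gene. The strongest CPN-only region, chr12:89668896-89669261, lay 143430 bp from the internal start and was enriched 8.56-fold in CPN 1 and 10.4-fold in CPN 2. A pair of strong CPN-only regions lay just past the internal start, at 4788 bp, with folds of 3.76 in CPN 1 and 4.03 in CPN 2, and at 5934 bp, with 4.24 in CPN 1 and 4.73 in CPN 2. Replicates disagreed in one stretch. With the gene body cut into 3 equal parts, the last part held 25 regions, of which 11 were in CPN 1 alone and 2 in CPN 2 alone, while 2 were CSMN-only, 3 CPN-only and 7 in all 3 libraries. The first part held 40 regions, 19 in all 3 libraries, 6 CSMN-only and 4 CPN-only, and the middle part held 28, 16 of them in all 3 libraries, 1 CSMN-only and 4 CPN-only.

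**Figure D3:**
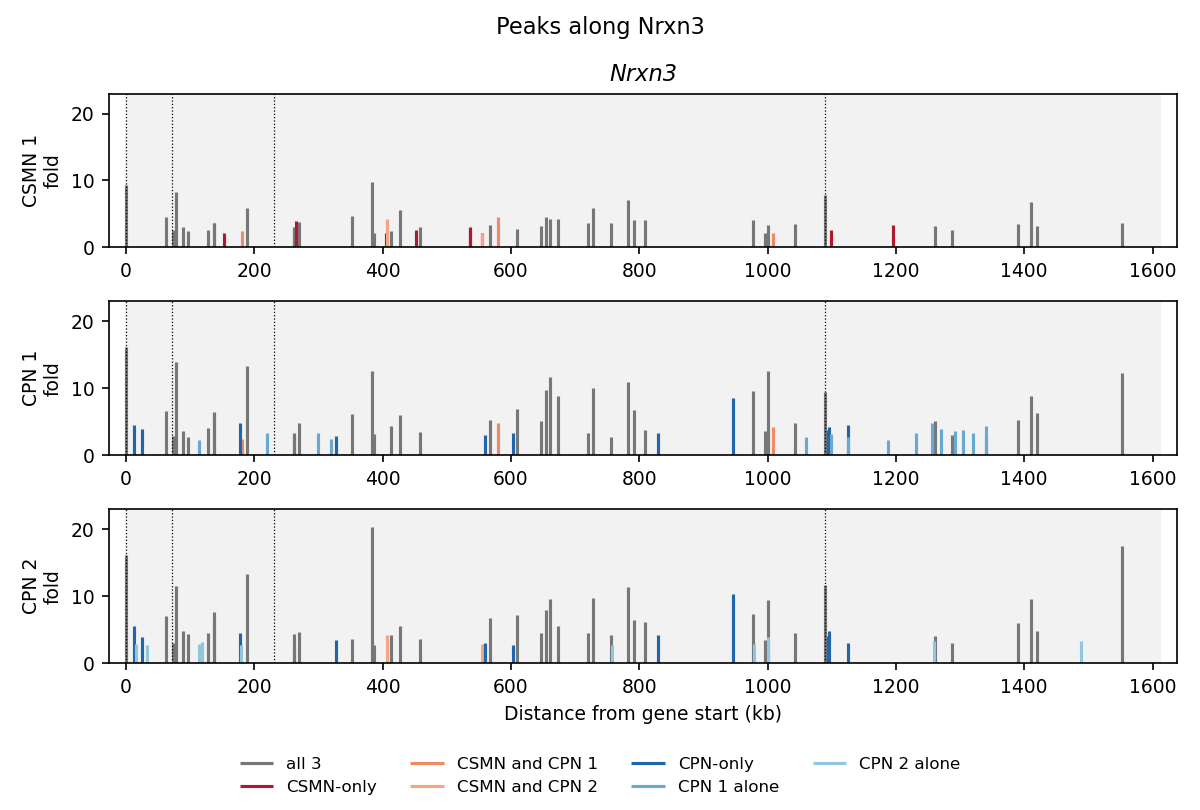
Peaks along Nrxn3 by distance from the start of the gene body (kb), with the authors' fold on the vertical axis, CSMN 1 above CPN 1 and CPN 2; colour gives the libraries that held the region, grey shading the gene body, and dotted lines the annotated starts. The CPN-only region at 8.56-fold in CPN 1 and 10.4-fold in CPN 2 stands before the last dotted line, and regions of CPN 1 alone gather towards the far end.

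Nlgn1, the neuroligin of excitatory synapses, spans 911 kb at chr3:25421808-26332866 on the minus strand. It had 49 regions, 5.26 per 100 kb, above 44% of 133 genes of like length. CSMN 1 had 22 peaks, CPN 1 had 38 and CPN 2 had 35, and 17 regions were in all 3 libraries, with 4 CSMN-only and 11 CPN-only. The strongest peaks of the gene lay 329.5 kb inside it, chr3:26003283-26003590, with a fold of 9.72 in CSMN 1, 16 in CPN 1 and 18 in CPN 2, above those at its start. A second annotated start at 26153986 was open in every library, with a fold of 5.55 in CSMN 1, 6.85 in CPN 1 and 7.23 in CPN 2 for the strongest peak within 1 kb. A group of 4 strong CPN-only regions followed each other with no other region between them across 11.9 kb, chr3:25646364-25658311, towards the far end of the gene. Their folds were 5.2, 5.2, 5.78 and 3.35 in CPN 1 and 3.94, 5.26, 7.01 and 3.94 in CPN 2. No CSMN peak lay in that stretch. None of the 4 CSMN-only regions was strong, the highest fold being 2.69, and 1 of them lay at the gene body start with a fold of 1.96.

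Nlgn2, the neuroligin of inhibitory synapses, spans 14.7 kb at chr11:69823123-69837784 on the minus strand and had 7 regions. CSMN 1 had 5 peaks, CPN 1 had 3 and CPN 2 had 5. Both regions in all 3 libraries were strong: the promoter peak, and a region upstream inside Plscr3 with a fold of 6.98 in CSMN 1, 14.6 in CPN 1 and 11.3 in CPN 2. The 2 CSMN-only regions lay in the gene body with folds of 2.13 and 1.99. The 1 CPN-only region lay 525 bp inside the gene, enriched 2.3-fold in CPN 1 and 2.11-fold in CPN 2, and it was lost from the CPN-only class with lists of equal length. With so few regions the CSMN-only share of 66.7% had an interval of 20.8 to 93.9, and with −log10 q of at least 5 it was 0%.

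Lrrtm1, a postsynaptic partner of neurexins, spans 30.7 kb at chr6:77229210-77259915 on the plus strand inside Ctnna2. It had 7 regions, of which 4 were in all 3 libraries and 2 were CPN-only. Both CPN-only regions were strong. The first, chr6:77240463-77240863, lay 1878 bp before the annotated start, with folds of 8.53 in CPN 1 and 7.14 in CPN 2 and a −log10 q that reached 123 in CPN 1 and was 66.9 in CPN 2. The other region, chr6:77257838-77258126, lay 15435 bp past it, with folds of 12 in CPN 1 and 14 in CPN 2 and a −log10 q equal to 74.6 in CPN 1 and to 75.9 in CPN 2. These were the highest folds of any CPN-only region of the 8 genes. Neither of these 2 regions had a CSMN peak, although in both CPN lists their folds exceeded that of the start peak. Both stayed CPN-only with strong peaks alone and with lists of equal length. The start of the gene body at 77229210 had no peak within 1 kb, the nearest lying 5711 bp away in CSMN 1, 5701 bp in CPN 1 and 5730 bp in CPN 2. The rest of Ctnna2, which encodes an alpha-catenin of cell junctions, held 66 regions, 5 of them CSMN-only and 17 CPN-only.

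Lrrtm2, also a neurexin partner, is the shortest of the genes at 6.02 kb and lies on chromosome 18 inside Ctnna1. CSMN 1 had 1 peak, CPN 1 had 2 and CPN 2 had 5, in 4 regions. The peak at the upper gene end was shared by all 3 libraries. The 1 CPN-only region lay inside the gene, enriched 4.21-fold in CPN 1 and 4.82-fold in CPN 2, and the other 2 regions were in CPN 2 alone. Outside Lrrtm2, Ctnna1 held 7 regions, 1 CSMN-only and 2 CPN-only.

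Lrrtm3, of the same postsynaptic family, spans 162 kb at chr10:63928497-64090255 on the minus strand inside Ctnna3. It had 15 regions, each with a peak in CPN 1, while CSMN 1 had 7 peaks and CPN 2 had 13. Regions in all 3 libraries numbered 7 and CPN-only regions 4. None of the 4 was strong in both CPN libraries and none kept its class with lists of equal length. The rest of Ctnna3 had 7 CSMN-only regions, 4 of them strong, and 5 CPN-only regions of 36. Lrrtm3 itself had no CSMN-only region within 10 kb, a CSMN-only share of 0% (0 to 49), and 1 with windows of 50 kb. In the rest of Ctnna3 the share was 58.3% (32 to 80.7). The 2 intervals overlapped, and both included the 32.5% of all gene windows. The difference was not tested.

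Lrrtm4, which binds neurexins and also glypicans, spans 791 kb at chr6:80018858-80810162 on the plus strand. It was the sparsest of the genes, with 12 regions or 1.48 per 100 kb, above 3.35% of 178 genes of like length, whose median was 6.69. CSMN 1 had 9 peaks, CPN 1 had 7 and CPN 2 had 9. It joined the strongest start peak of the 8 genes to a gene body with few regions. The 4 CSMN-only regions outnumbered the 2 CPN-only regions but were weak, 1 with a fold of 2.52 and 3 with 2.17, and no strong region was CSMN-only. Both CPN-only regions were strong. The higher, chr6:80625574-80625901, lay 606.8 kb into the gene, enriched 8.41-fold in CPN 1 and 6.48-fold in CPN 2. The neighbouring region chr6:80622595-80623501 was in all 3 libraries, with a fold of 2.52 in CSMN 1, 6.74 in CPN 1 and 7.03 in CPN 2.

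**Figure D4:**
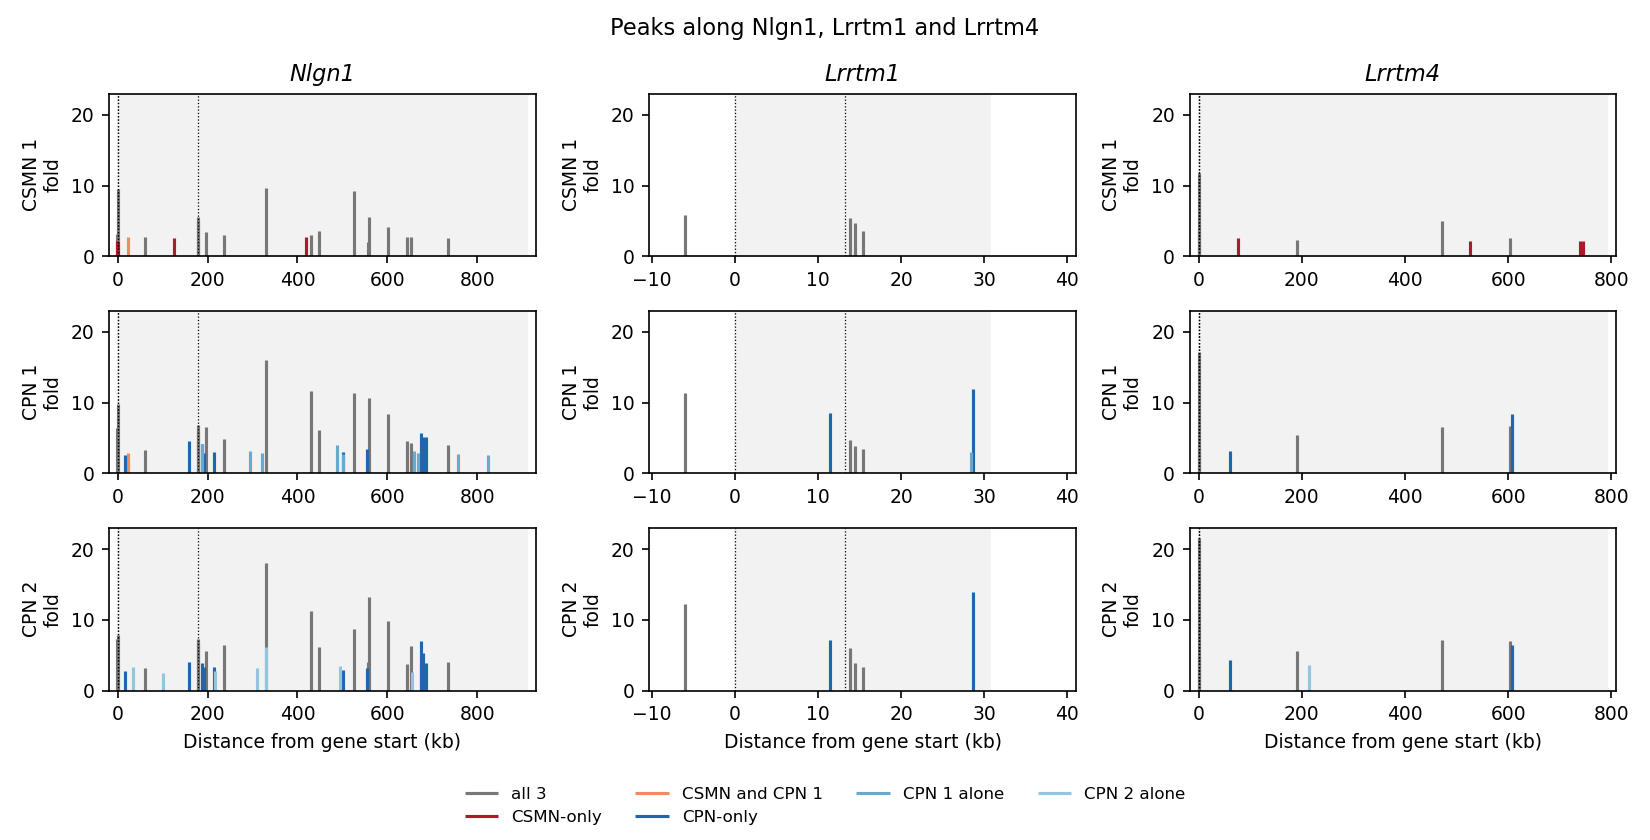
Peaks along Nlgn1, Lrrtm1 and Lrrtm4 by distance from the start of the gene body (kb), drawn as for Nrxn3, with CSMN 1 above CPN 1 and CPN 2. The 4 adjacent CPN-only regions of Nlgn1, the 2 CPN-only regions of Lrrtm1 and the long bare body of Lrrtm4 are visible.

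Regions with a peak in all 3 libraries can be compared by rank, since they form 1 common set. Each was given its percentile by fold within each library over the 62435 shared regions. The 89 regions of the members had a median difference, CSMN minus the mean of CPN, of 0.6 percentile points, with a range of −44.4 to 47.5, and the median absolute difference between CPN 1 and CPN 2 was 6.2 points. At least 10 points higher in CSMN than in both CPN libraries were 20 regions, 22.5%, against a background of 16.4%, and at least 10 points lower were 14, 15.7%, against 16.5%. The start peaks differed among the genes. That of Nrxn3 stood at 89.7 in CSMN 1, 90.8 in CPN 1 and 90 in CPN 2, and that of Nrxn2 at 86.2 in CSMN 1, 85.9 in CPN 1 and 85.4 in CPN 2, all within about 1 point. The Lrrtm3 start peak stood at 94.1 in CSMN 1, 91.6 in CPN 1 and 96.1 in CPN 2, between the replicates. The strongest Nlgn1 start peak stood at 90.1 in CSMN 1, 74 in CPN 1 and 61.7 in CPN 2, above both. Another shared region, 369 bp from the Nlgn1 gene body start, chr3:26333235-26333921, went the other way. It stood at 39 in CSMN 1, 52 in CPN 1 and 56.8 in CPN 2.

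At Lrrtm1, 3 shared regions, adjacent to each other with summits 643 to 2120 bp past its start, ranked higher in CSMN than in both CPN libraries. The region at chr6:77242607-77243346 stood at 72.8 in CSMN 1, 32.8 in CPN 1 and 45.9 in CPN 2. The next, chr6:77243521-77244206, stood at 66.5 in CSMN 1, 19.6 in CPN 1 and 18.4 in CPN 2. The last, chr6:77244405-77245168, stood at 48.4 in CSMN 1, 13.1 in CPN 1 and 11 in CPN 2. These ranks contrast with the CPN-only regions on either side of them in the same gene. Lrrtm3 had a region 5.7 kb inside the gene at 55.2 in CSMN 1, 23.2 in CPN 1 and 7.4 in CPN 2, and a region at the second Lrrtm4 start stood at 54.8 in CSMN 1, 18.8 in CPN 1 and 29 in CPN 2. At the second Nlgn1 start, chr3:26152499-26153392 stood at 73.7 in CSMN 1, 45.2 in CPN 1 and 52.8 in CPN 2. In each of these the CSMN rank exceeded both replicates by more than the replicates differed. They were named for large rank differences, so this is no support for a cell type difference. It did not hold everywhere: chr12:89074818-89075897 in Nrxn3 stood at 65.1 in CSMN 1, 48.4 in CPN 1 and 14.9 in CPN 2.

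In the other direction, chr3:25903127-25903655 in Nlgn1 stood at 35.2 in CSMN 1, 80.9 in CPN 1 and 78.3 in CPN 2. Its fold was 3.04 in CSMN 1, 11.7 in CPN 1 and 11.2 in CPN 2. Near the far end of Nrxn3, chr12:90274474-90275151 stood at 50.8 in CSMN 1, 82.7 in CPN 1 and 92.3 in CPN 2, and its fold was 3.64 in CSMN 1, 12.3 in CPN 1 and 17.5 in CPN 2. The Lrrtm4 region beside the strong CPN-only region stood at 15.2 in CSMN 1, 54.2 in CPN 1 and 55.2 in CPN 2. In all 3 the CPN ranks were closer to each other than to the CSMN rank, but these too were named for large differences. At chr10:64076007-64076446 in Lrrtm3 the replicates stood further apart, at 38.1 in CPN 1 and 65.3 in CPN 2, with 26 in CSMN 1.

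**Figure D5:**
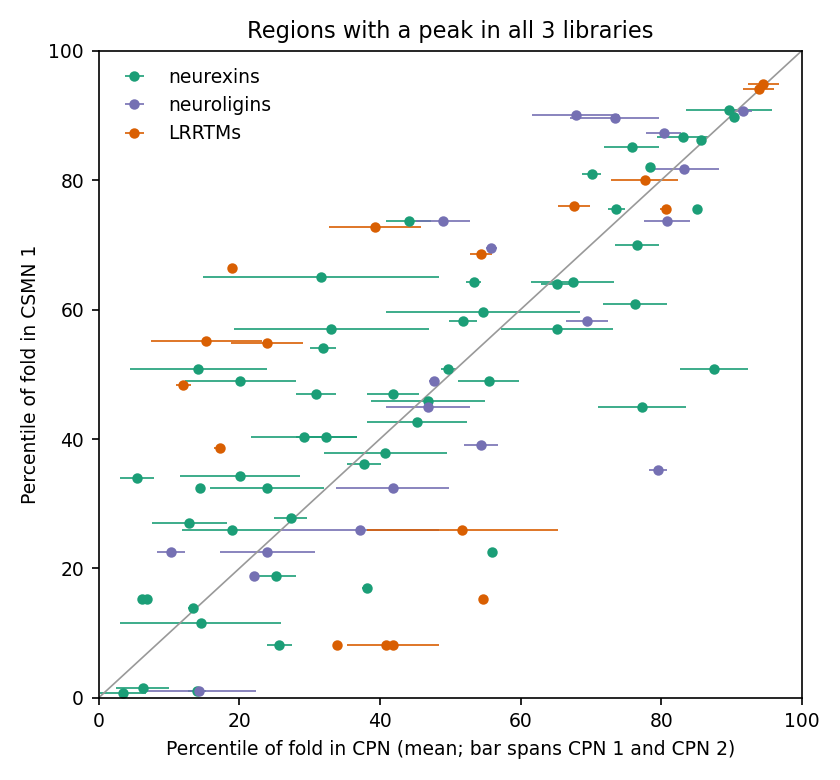
Percentile of fold among the 62435 regions shared by all 3 libraries, CSMN 1 on the vertical axis and the mean of CPN 1 and CPN 2 on the horizontal axis, with a bar from one CPN library to the other, for the 89 shared regions of the 8 genes; the line marks equal ranks. The strongest start peaks of Nrxn2, Nrxn3, Lrrtm3 and Lrrtm4 lie near the line at the top right, and that of Nlgn1 lies above it. The Nlgn1 and Nrxn3 regions named in the text for lower CSMN ranks lie far below it.

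Seen from each list, 79.7% (71.5 to 85.9) of the CSMN regions of the members were also in CPN 1 and 78% (69.7 to 84.5) in CPN 2, beside 74.7% and 75.4% in all gene windows. Of the members' CPN 1 regions, 54.7% (47.2 to 61.9) were also in CSMN 1 and 76.7% (69.9 to 82.4) in CPN 2. Of their CPN 2 regions, 57.9% (50.1 to 65.3) were also in CSMN 1 and 83% (76.4 to 88.1) in CPN 1. Over all gene windows, 51.1% of CPN 1 regions were also in CSMN 1 and 77.5% in CPN 2, and 45.7% of CPN 2 regions were also in CSMN 1 and 68.7% in CPN 1. The members' intervals lay above the background for both CPN 2 shares and included it for both CPN 1 shares. They count regions as independent, although Nrxn3 gave 93 of the 220, and these shares were not computed without Nrxn3.

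The genes most like each member were taken as those of like length with the nearest peak density in the 3 libraries, measured as the distance between log2 values of peaks per 100 kb plus 0.1. For Nrxn2 these were Coro2b at 0.06 and Slc6a6 at 0.08 among 2487 genes. For Nrxn3 they were Agbl4 at 0.29 and Magi2 at 0.42 among 49, and for Nlgn1 they were Adgrl3 at 0.13 and Egfem1 at 0.22 among 133. Lrrtm3 was nearest to Uggt1 at 0.07 and Tmem164 at 0.11 among 1679, and Lrrtm4 to Cntnap5b at 0.36 and Sgcz at 0.56 among 178. Magi2, which encodes a synaptic scaffold, had 62 peaks in CSMN 1, 56 in CPN 1 and 75 in CPN 2, with 20 CSMN-only regions and 11 CPN-only regions. Adgrl3, a latrophilin, had 20 peaks in CSMN 1 and 34 in each CPN library.

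The windows of 48 partner genes in 5 lists held 1179 regions, with 130 CSMN-only and 226 CPN-only. Their CSMN-only share was 36.5% (31.7 to 41.6), beside 32.8% for the members and 32.5% in all gene windows. Start peaks were present in all 3 libraries for 9 of 9 genes of secreted binders, 10 of 10 membrane partners, 9 of 10 intracellular partners, 3 of 3 alpha-catenins and 16 of 16 other synaptic adhesion genes. Dlg4, the postsynaptic scaffold PSD-95, was the exception and lacked the CSMN start peak. Over all protein-coding genes, 65.9% had a start peak in all 3 libraries. The 9 secreted binders, cerebellins, C1q-like proteins and neurexophilins, had 5 CSMN-only and 4 CPN-only regions, 55.6% (26.7 to 81.1), and Nxph1, a neurexophilin, had 3 and 1. Nxph4 had 0 and 2 and Nxph3 had neither.

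Membrane partners had 49 CSMN-only and 58 CPN-only regions, 45.8% (36.7 to 55.2), beside the 32.5% of all gene windows. Grid1, a delta glutamate receptor that joins neurexins through cerebellins, held 14 regions of each class, and Adgrl3 had 3 CSMN-only and 10 CPN-only. Intracellular partners had 28 and 45, 38.4% (28.1 to 49.8), and none of the 28 CSMN-only regions was strong. Among them Apba2, a Mint adaptor, had 4 and 11, and Apba1 had 0 and 12. The alpha-catenin genes, whose windows include the nested LRRTMs, had 13 and 31, 29.5% (18.2 to 44.2). Other synaptic adhesion genes had 35 and 88, 28.5% (21.2 to 37), with Tenm2, a teneurin, at 10 and 38, Ptprd, a receptor phosphatase, at 11 and 16 and Ntrk3, a neurotrophin receptor, at 5 and 12. More CSMN-only than CPN-only regions were found in 3 of 9 secreted binders, 3 of 10 membrane partners, 1 of 10 intracellular partners, 0 of 3 alpha-catenins and 1 of 16 other adhesion genes. More CPN-only regions were found in 2 of 9, 4 of 10, 5 of 10, 3 of 3 and 7 of 16. Over protein-coding genes with a region, 16.9% had more CSMN-only and 44.0% more CPN-only regions.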

How the data were processed

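ATAC-seq peak lists of 1 CSMN library and 2 CPN libraries were used. Per the submitters' processing notes, the build was mm10 and the tools included MACS2 2.2.7.1, BWA 0.7.17 and bedtools 2.29.2, with no roles stated. Read filters, duplicate removal, the transposase shift and the caller's mode are not given in the sources used here. Peak names carry a single library, so peaks were treated as called by the authors on each library separately. The deposited values per peak are a fold at the summit over local background, the significance as −log10 q and −log10 p, and a score close to 10 times the −log10 q, all computed by the authors. No read totals were given, so depth is unknown.

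Peaks were merged at an overlap of 1 bp and assigned by summit to RefSeq gene bodies of GRCm38.p6 with 10 kb on each side, in Python 3.11.15 with pandas 2.3.3 and scipy 1.17.1. The merging was tested on simulated data. Gene starts came from the RefSeq promoter table and the gene body start, or either gene end where strand was lacking. No p-value was computed. The members and lists were chosen with earlier results of these data known. The genes named are the 8 members, the 3 genes with the most regions of each partner list (1 membrane partner and the start peaks of CPN markers are not reported here), the 2 genes most like each member with at least 10 regions, and genes chosen after their values were seen, such as neighbours, hosts and markers without a start peak. Alternatives were peaks with a −log10 q of at least 5, lists of equal length, an overlap of 50% of the shorter peak, other windows, each CPN replicate left out and regions inside other genes left out. Counting starts from the promoter table alone was chosen after seeing the data.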

Additional observations from a re-analysis of the deposited data

How the results depend on the processing

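Direction below means more or fewer CSMN-only than CPN-only regions. With 8 of 8 members open at a start, no alternative but the promoter table alone changed the count, which then covers the 6 members it holds (6 of 6). CPN-only regions of the members numbered 27 with lists of equal length, and 71 to 79 when a CPN replicate was left out, since the class then needs 1 library. CSMN-only regions numbered 3 with −log10 q of at least 5, where CPN-only regions numbered 43, 28 of them the same regions. Equal lengths cut the CPN lists alone, so no CSMN-only region could lose its class there. The CSMN-only share of the members was 6.52% with −log10 q of at least 5 and 50% with equal lengths. For the partner lists it was 10.2% with −log10 q of at least 5, 57% with equal lengths, which turns the direction, and 26.6% to 29.5% without a CPN replicate. Equal lengths also turned Nrxn3 to 65%, all regions to 58.1%, intracellular partners to 60%, membrane partners to 59% and other synaptic adhesion genes to 54.5%. A −log10 q of at least 5 turned Lrrtm4 and Nlgn2 to 0% and secreted binders to 12.5%. Windows of 50 kb turned Nlgn2 to 33.3% and secreted binders to 40%, leaving out a CPN replicate turned secreted binders to 35.3% or 35%, and an overlap of 50% turned Nrxn3 to 52%. The median rank difference of shared regions was −0.8 points with windows of 50 kb, against 0.6 with 10 kb. In all, 15 alternative values turned, 26 moved further than the interval or spread of the value reported, or by over 1.5 times for a count, and 123 stayed within that, which for genes with few regions is wide.

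No paired analysis was possible because CSMN and CPN share fewer than 2 replicate numbers. With 1 CSMN library, what belongs to the cell type and what belongs to that library cannot be told apart. Without read totals, a missing peak is not shown to be closed chromatin.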
